A study of Sus scrofa with 12 samples.

Results

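MGP, DKK3, MXRA8 and COL1A1 are 4 genes that are usually discussed with the extracellular matrix and its fibroblasts. They were taken by symbol from the deposited expression table. They are 4 of its 30461 gene rows and 4 of the 14070 genes that had enough counts to be tested. The 4 were chosen by their measured levels in these same 12 libraries, which were known to differ between the culture media and from fresh cells. Their levels and differences are therefore given as a description, with a standard error (SE) and with no test. No sequence or coordinate of the genes is given here.

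The libraries are bulk 3′ mRNA sequencing of pig (Sus scrofa) oviduct cells, which the labels call epithelial cells in all 3 groups. A group of 4 libraries came from cells scraped from the oviduct and taken as single cells, called fresh cells here. The other 8 came from spheroids, which are cells gathered into 3-dimensional clusters in culture: 4 libraries from DMEM/F12, a common basal medium, and 4 from a medium named Incubation Medium. What either medium contained is not stated in the labels. Library titles have FBS where the treatment is DMEM/F12 and Diff where it is Incubation Medium, with no explanation. They name no genotype, breed or age of the animals, no culture time and no agent beyond the media. They do not say whether the 4 replicates of a group came from separate animals or cultures, so p-values here measure only the spread between these libraries. Library totals ran from 5045218 to 6026901 counts in fresh cells and from 7583584 to 8603809 in the spheroids. Levels are CPM, counts relative to the library size, with sizes scaled by the TMM method, which corrects for differences in RNA composition. The series belongs to a protocol for uniform spheroids, and the comparison of the media asks how their RNA differed.

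Connective tissue under an epithelium is built by fibroblasts, which secrete collagens and the small proteins that control matrix mineralisation and growth factor signalling. In the oviduct this tissue lies between the folded epithelium and the muscle layer, and scraping can carry some of it along. COL1A1 (ENSSSCG00025071146) encodes the alpha 1 chain of type I collagen, the main fibrillar collagen, which assembles with the chain encoded by COL1A2. MGP (ENSSSCG00025048192), matrix Gla protein, is a small secreted protein that needs vitamin K-dependent carboxylation, holds back calcification of soft tissue and can bind bone morphogenetic proteins (BMPs). DKK3 (ENSSSCG00025030760) is a secreted glycoprotein and a divergent member of the Dickkopf family, whose other members block Wnt co-receptors. MXRA8 (ENSSSCG00025065050) is a membrane protein with immunoglobulin-like domains that serves as an entry receptor for arthritogenic alphaviruses. Epithelial cells can express some of these genes too, and bulk libraries do not separate the sources. For any gene below, fewer cells of a type and less RNA per cell cannot be told apart.

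All 4 genes averaged lower in spheroids formed in Incubation Medium than in those formed in DMEM/F12, by 5.2-fold for MGP, 6.38-fold for COL1A1, 10.3-fold for MXRA8 and 13.9-fold for DKK3. For MGP, DKK3 and MXRA8 all 4 Incubation Medium libraries lay below all 4 DMEM/F12 libraries, and for COL1A1 the groups overlapped by 1 library on each side. Over all tested genes, 13% had their 4 Incubation Medium libraries below the 4 DMEM/F12 libraries and 13.9% above them. For DMEM/F12 against fresh cells 32.9% lay below and 32.4% above, and for Incubation Medium against fresh cells 32.5% lay below and 32.4% above. Nothing is read from these shares for the 4 genes, since all 3 contrasts were known when they were chosen. Against fresh cells the 4 genes did not share a direction. MGP averaged lower in both kinds of spheroid and DKK3 higher in both. MXRA8 averaged higher in DMEM/F12 spheroids and lower in Incubation Medium spheroids than in fresh cells. COL1A1 overlapped between fresh cells and DMEM/F12 spheroids and lay lower in Incubation Medium.

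**Figure D1:**
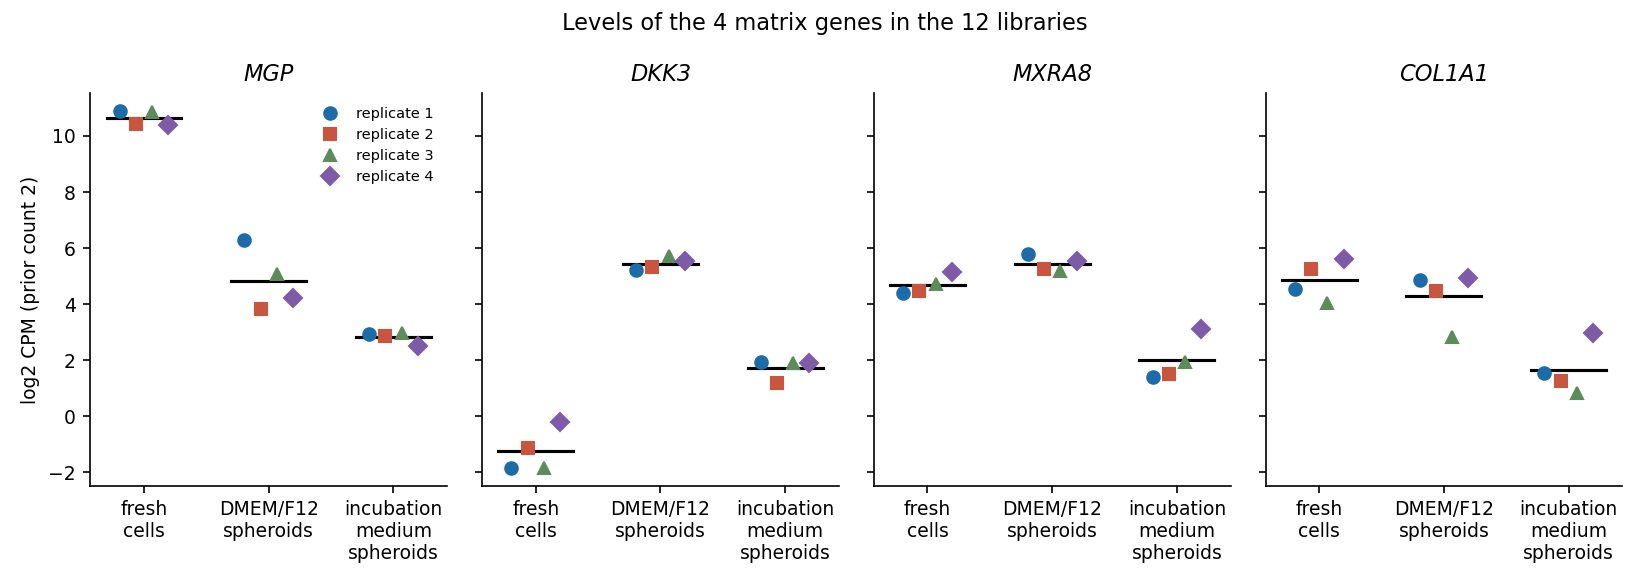
Levels of the 4 genes in each of the 12 libraries, as log2 CPM with a prior count of 2 on the vertical axis, by group on the horizontal axis. Each symbol is 1 library, its shape and colour give the replicate number, and the black bar is the mean of the 4 libraries. In all 4 panels the Incubation Medium bar lies below the DMEM/F12 bar, while fresh cells are the highest group for MGP and the lowest for DKK3, whose fresh cell libraries held at most 3 counts each.

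COL1A1 was measured at 22.8, 37.5, 16.3 and 48.0 CPM in fresh cell replicates 1 to 4. DMEM/F12 spheroids had 28.5, 22.0, 6.88 and 30.5 CPM. In Incubation Medium spheroids the values were 2.62, 2.14, 1.48 and 7.52 CPM. The lowest DMEM/F12 library, replicate 3 at 6.88, fell under the highest Incubation Medium library, replicate 4 at 7.52, and these were the only libraries of the spheroid groups that crossed. The group means were 31.1 ± 14.3 CPM (SD, n = 4), 21.9 ± 10.7 and 3.44 ± 2.76. The log2 fold change of Incubation Medium minus DMEM/F12 was -2.69 (SE 0.53), and -3.39 without Incubation Medium replicate 4. Incubation Medium minus fresh cells gave -3.19 (SE 0.53) with no overlap, and -3.87 without that same library. DMEM/F12 minus fresh cells gave -0.50 (SE 0.44), a difference near its own error, with 3 of the 4 DMEM/F12 libraries inside the range of the fresh cells.

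MGP reached 1882, 1377, 1848 and 1339 CPM in fresh cells. In DMEM/F12 spheroids it stood at 77.0, 13.8, 33.2 and 18.3 CPM, a spread of 5.57-fold from the lowest to the highest library. Incubation Medium spheroids held 7.40, 7.07, 7.51 and 5.37 CPM. Every fresh cell library therefore exceeded every spheroid library, and every DMEM/F12 library exceeded every Incubation Medium library. Group means were 1612 ± 293 CPM (SD, n = 4), 35.6 ± 28.8 and 6.84 ± 0.994 in the order above. The log2 fold changes were -5.50 (SE 0.44) for DMEM/F12 minus fresh cells, -7.87 (SE 0.50) for Incubation Medium minus fresh cells and -2.37 (SE 0.45) for Incubation Medium minus DMEM/F12. DMEM/F12 replicate 1 carried part of these sizes: without it the difference between media was -1.66 and that between DMEM/F12 and fresh cells -6.20.

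DKK3 was close to absent from fresh cells, with 0, 1, 0 and 3 counts in the 4 libraries, all at or under the floor of 3 counts that a count of 0 allows. DMEM/F12 spheroids held 37.0, 39.5, 52.1 and 46.0 CPM. Incubation Medium spheroids held 3.58, 2.00, 3.45 and 3.49 CPM. The 3 groups were clear of each other, with the narrowest spread of the 4 genes in DMEM/F12, 43.6 ± 6.81 CPM (SD, n = 4), against 3.13 ± 0.754 in Incubation Medium. The log2 fold change between the media, Incubation Medium minus DMEM/F12, was -3.79 (SE 0.22). Against the floor per library, DKK3 was at least 79.0-fold higher in DMEM/F12 spheroids than in fresh cells and at least 5.67-fold higher in Incubation Medium spheroids. Such bounds allow for counting error alone, because reads copied by amplification are not independent molecules.

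MXRA8 had 20.5, 21.9, 25.8 and 35.1 CPM in fresh cells. Its DMEM/F12 libraries held 54.9, 37.6, 36.4 and 46.5 CPM. The Incubation Medium libraries held 2.39, 2.54, 3.57 and 8.46 CPM, with replicate 4 the highest there as for COL1A1. No groups overlapped, although the gap between fresh replicate 4 at 35.1 and DMEM/F12 replicate 3 at 36.4 was small. Mean levels were 25.8 ± 6.56 CPM (SD, n = 4), 43.8 ± 8.61 and 4.24 ± 2.86. The log2 fold change was -3.38 (SE 0.31) for Incubation Medium minus DMEM/F12 and -2.61 (SE 0.32) for Incubation Medium minus fresh cells. These were -3.94 and -3.16 without Incubation Medium replicate 4. DMEM/F12 minus fresh cells gave 0.77 (SE 0.26), 1.70-fold.

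The order of the groups thus differed between the members. Fresh cells above DMEM/F12 above Incubation Medium, the order of MGP, was met without overlap by 357 tested genes, or 2.54%. DMEM/F12 above Incubation Medium above fresh cells, the order of DKK3, was met by 582 genes, or 4.14%. DMEM/F12 above fresh cells above Incubation Medium, the order of MXRA8, was met by 21 genes, or 0.149%. COL1A1 was in none of these sets because DMEM/F12 overlapped with fresh cells and also with Incubation Medium. As a measure of likeness, the profiles of 2 genes were each centred on their mean over the 12 libraries and the root mean square of their log2 differences was taken. MXRA8 and COL1A1 were the closest pair at 0.80, and MGP and DKK3 the farthest apart at 5.59.

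Within groups, the same replicate numbers stood high or low more than once. COL1A1 was highest in replicate 4 and lowest in replicate 3 in all 3 groups. For MGP, replicates 1 and 3 held the 2 highest values of each group. MXRA8 was highest in replicate 4 in fresh cells and in Incubation Medium, and in replicate 1 in DMEM/F12. DKK3 shared no such order between the spheroid groups: replicate 3 was its highest in DMEM/F12 and replicate 1 in Incubation Medium. Other matrix genes had orders of their own, as FBLN1 was highest in replicate 4 and FBLN2 in replicate 1 of all 3 groups. Adding the replicate number as a block narrowed the error of COL1A1, to -2.70 (SE 0.26) between the media and -0.53 (SE 0.21) for DMEM/F12 minus fresh cells. The error between the media narrowed for the other members too, to -2.22 (SE 0.31) for MGP, -3.79 (SE 0.18) for DKK3 and -3.42 (SE 0.23) for MXRA8.

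**Figure D2:**
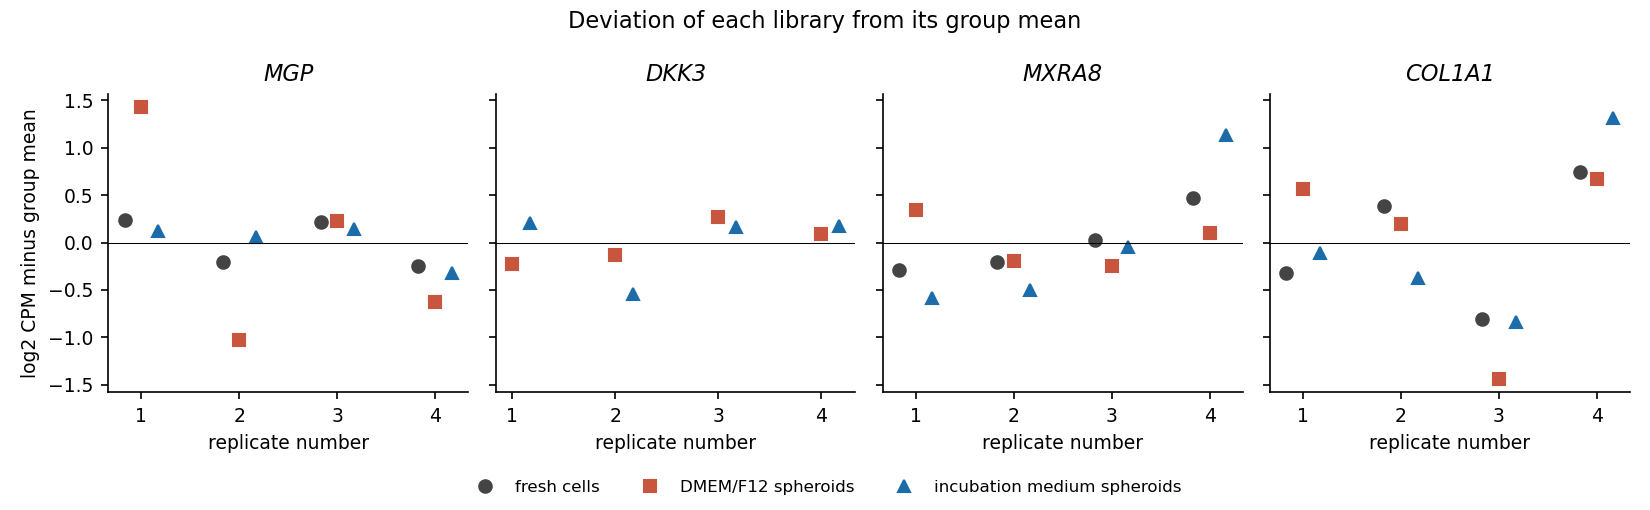
Deviation of each library from the mean of its group, in log2 CPM on the vertical axis, against the replicate number on the horizontal axis. Circles are fresh cells, squares DMEM/F12 spheroids and triangles Incubation Medium spheroids, and fresh cells are left out for DKK3 because they held at most 3 counts. For COL1A1 all 3 groups lie above 0 at replicate 4 and below 0 at replicate 3, and for MGP the widest spread is that of the DMEM/F12 squares.

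The label of the set was checked against a list of 32 fibroblast markers that holds none of the 4 genes. Of these, 13 were tested. Between the media, Incubation Medium against DMEM/F12, 4 of the 13 fell and 0 rose (edgeR quasi-likelihood test, adjusted p under 0.05), beside 12.3% of all tested genes that fell and 12.7% that rose. The median log2 fold change of the list was -0.47 and that of all tested genes was -0.0035. At an unadjusted p under 0.05 edgeR gave 1 marker higher, and DESeq2 called 1 higher after adjustment. In the 6 other lists below with 0 genes higher between the media, both of these counts were 0 as well. On the fibroblast list, 7 fell and 3 rose in DMEM/F12 spheroids against fresh cells (median log2 -0.78), where 35.7% of all tested genes fell and 35.1% rose. In Incubation Medium against fresh cells 9 fell and 3 rose (median log2 -1.92), where 35.8% fell and 35.8% rose. The comparisons share libraries, so their calls are not independent of each other. With the replicate block 6 fell and 1 rose between the media, and the counts against fresh cells were as above. The tested markers thus did not share a direction against fresh cells, and neither did the 4 genes. No row carried the symbols DCN, LUM, VIM, BGN or PDGFRB, and these were not analysed here.

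COL1A2 (ENSSSCG00025027200), the partner chain of COL1A1, had another order of groups. It averaged 18.9 ± 10.4 CPM (SD, n = 4) in fresh cells, with 8.70, 28.2, 27.5 and 11.2 CPM in replicates 1 to 4. DMEM/F12 spheroids had 1.58, 2.32, 2.78 and 1.44 CPM and Incubation Medium spheroids 4.65, 6.27, 3.82 and 2.96 CPM. All Incubation Medium libraries thus exceeded all DMEM/F12 libraries, the opposite of the means of COL1A1, though the log2 difference of 1.12 (SE 0.44) missed the threshold (edgeR adjusted p = 0.0758). With the replicate block it passed, at 1.15 (adjusted p = 0.00959). Against fresh cells COL1A2 fell by 3.21 on the log2 scale in DMEM/F12 (edgeR adjusted p = 6.19e-06) and by 2.09 in Incubation Medium (adjusted p = 0.000146). In fresh cells its 2 highest libraries were replicates 2 and 3, and those of COL1A1 were replicates 2 and 4.

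Other fibrillar collagens divided as well. COL3A1 (ENSSSCG00025064886), type III collagen, dropped from a fresh cell level of 24.1 ± 7.40 CPM (SD, n = 4) to 0.574 ± 0.24 in DMEM/F12 and 0.358 ± 0.210 in Incubation Medium. Its log2 fold changes against fresh cells were -5.33 and -6.03 (edgeR adjusted p = 7.06e-09 and 4.94e-09), and the media did not separate (log2 -0.70, SE 0.58, adjusted p = 0.418). COL5A1, a type V chain that helps to start fibrils, was at or under 3 counts in every fresh cell library. It was at least 17.5-fold higher in DMEM/F12 spheroids and at least 14.3-fold higher in Incubation Medium spheroids. COL5A2, its partner chain, fell by 2.28 and by 2.30 on the log2 scale (adjusted p = 2.04e-08 and 1.93e-08). COL14A1, a collagen bound to the surface of fibrils, was the only tested collagen of the list that fell between the media, by 1.14 on the log2 scale (SE 0.22, adjusted p = 0.0020).

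Among the surface markers, PDGFRA (ENSSSCG00025003513), a growth factor receptor of mesenchymal cells, was at or under 3 counts in all Incubation Medium libraries. Set against that floor, it was 4.60-fold lower there than in DMEM/F12, where it averaged 1.76 ± 0.464 CPM (SD, n = 4), a level low in itself. The Incubation Medium libraries held PDGFRA counts above 0, so with counting error the difference could be smaller than this. THY1 (ENSSSCG00025017956), a surface glycoprotein of fibroblasts and other cells, had 0.268 ± 0.299 CPM in fresh cells, 22.9 ± 15.2 in DMEM/F12 and 5.13 ± 1.93 in Incubation Medium. It rose by 6.29 on the log2 scale from fresh cells to DMEM/F12 spheroids (edgeR adjusted p = 1.35e-06). That size is uncertain, because fresh cell replicates 2 to 4 held 0.179, 0 and 0.196 CPM, under the floor of 3 counts. Replicate 1 held 0.696 CPM, and without it only a bound would apply. THY1 was lower in Incubation Medium than in DMEM/F12, at -2.15 (adjusted p = 0.00163). The order of its group means was that of DKK3. SPARC, a collagen-binding glycoprotein, did not separate DMEM/F12 from fresh cells (log2 0.01, SE 0.09) and fell by 0.55 between the media (adjusted p = 0.000472). FN1, fibronectin, passed the test in none of the 3 comparisons, with means of 11.03 ± 1.36, 13.9 ± 3.53 and 11.8 ± 3.95 CPM.

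**Figure D3:**
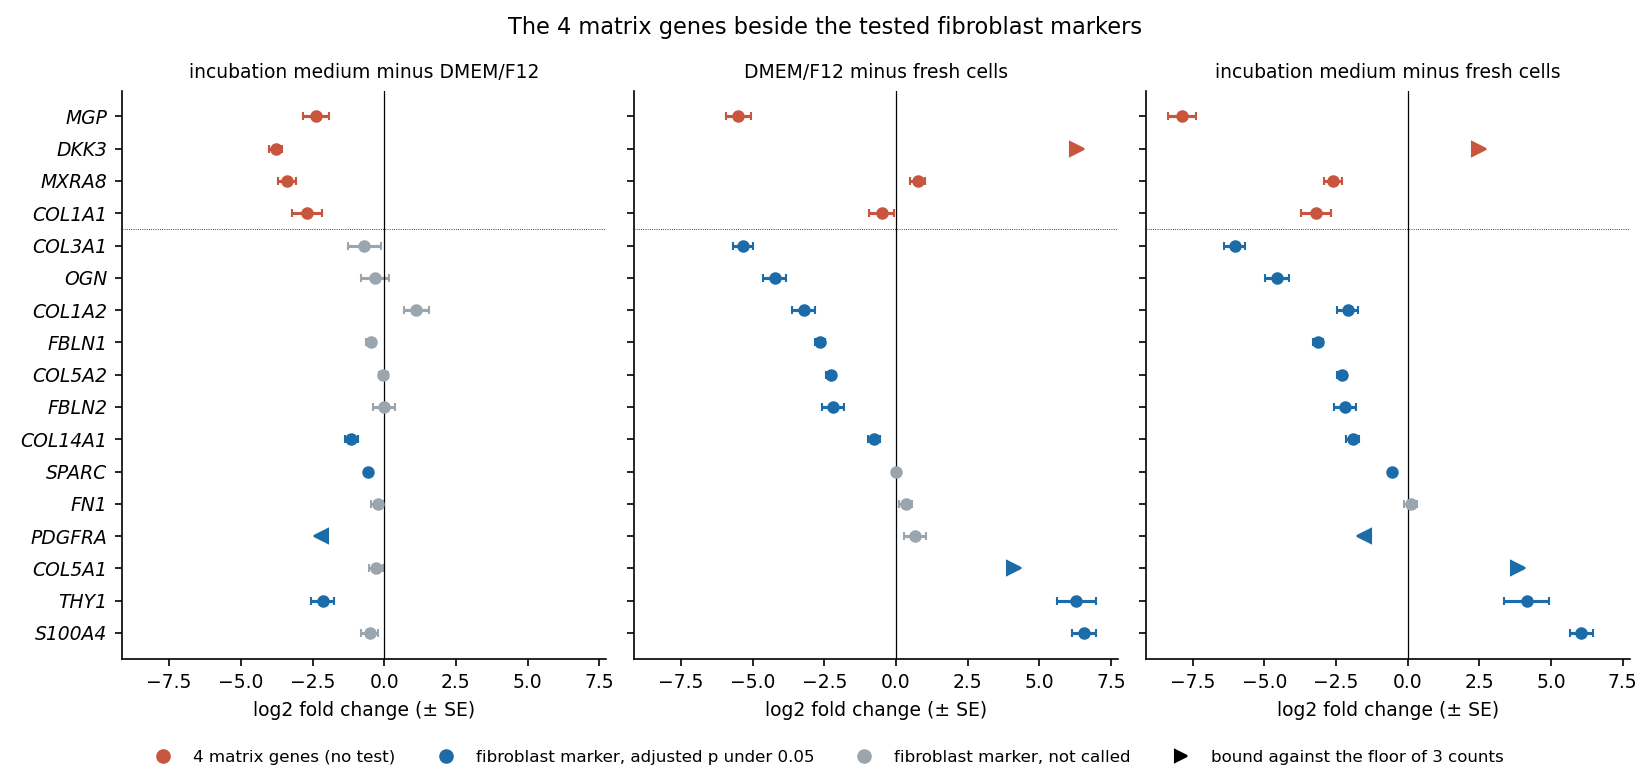
Log2 fold changes with their SE on the horizontal axis for the 4 genes (red, no test) and the 13 tested fibroblast markers below the dotted line, in the 3 comparisons. Blue points passed an adjusted p under 0.05, grey points did not, and triangles are bounds against the floor of 3 counts. In the left panel the 4 genes lie between -3.79 and -2.37, while 9 of the 13 markers are grey.

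Summed levels of cell type markers moved between the groups too. The fibroblast markers found in the table (22 rows) summed to 1717 to 1992 CPM in fresh cells, 1045 to 1385 in DMEM/F12 spheroids and 701 to 1044 in Incubation Medium spheroids, where replicate 4 was the highest of each spheroid group. S100A4, a calcium-binding protein of fibroblasts and of other migrating cells, held much of the spheroid sums: it averaged, from fresh cells on, 4.22 ± 1.29 CPM (SD, n = 4), 400.5 ± 171 in DMEM/F12 and 283 ± 113 in Incubation Medium. It rose by 6.56 and by 6.06 on the log2 scale against fresh cells (edgeR adjusted p = 7.22e-09 and 1.36e-08). Without S100A4 the fibroblast sums were 1713 to 1989, 605 to 859 and 456 to 603 CPM. Much of what was left came from a few genes, and no sum without them was taken. FBLN1 averaged 855, 136 and 98.2 CPM, SPARC 432, 436 and 298, and FBLN2 249, 54.8 and 54.6. Smooth muscle and pericyte markers summed to 380 to 491, 1248 to 1397 and 319 to 631 CPM. Most of each smooth muscle and pericyte sum was TAGLN, at 266, 1120 and 380 CPM on average, and no sum without it was taken. Endothelial markers gave 46.8 to 62.2, 145 to 260 and 99.2 to 164 CPM, and mesothelial markers 271 to 341, 366 to 523 and 277 to 381. Leukocyte markers summed to 460 to 513, 437 to 502 and 514 to 612 CPM, nearly all of it CD79A, a B cell receptor subunit, and without CD79A to 23.0 to 31.5, 21.4 to 39.7 and 13.7 to 22.7 CPM. Epithelial markers summed to 21102 to 30828, 6497 to 7686 and 4470 to 7048 CPM. OVGP1, the oviductal glycoprotein, made up most of the sum in fresh cells at 22241 ± 4595 CPM (SD, n = 4). It fell by 5.80 on the log2 scale in DMEM/F12 and by 5.56 in Incubation Medium (edgeR adjusted p = 8.14e-07 and 1.07e-06). No sum without OVGP1 was taken, so the epithelial sums do not show whether the other epithelial markers fell together. Of the marker rows, 2 of 22 for fibroblasts (COL6A1 and TCF21), 3 of 13 for smooth muscle and pericytes (CSPG4, DES and RGS5), 2 of 9 for endothelium (ERG and VWF) and 1 of 3 for mesothelium (CALB2) held at most 3 counts in every library. For leukocytes and epithelium 0 of 9 rows each were that low. Some other markers of these lists were well above the floor, and others were near it. The fibroblast markers ASPN and PRRX1 held at most 4 counts in a library. In DMEM/F12 the endothelial CDH5, KDR and PECAM1 averaged 108, 74.2 and 7.91 CPM, whereas TEK and FLT1 held at most 11 and 15 counts in a library. The part that any of these cell types had in the levels of the 4 genes was not tested.

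**Figure D4:**
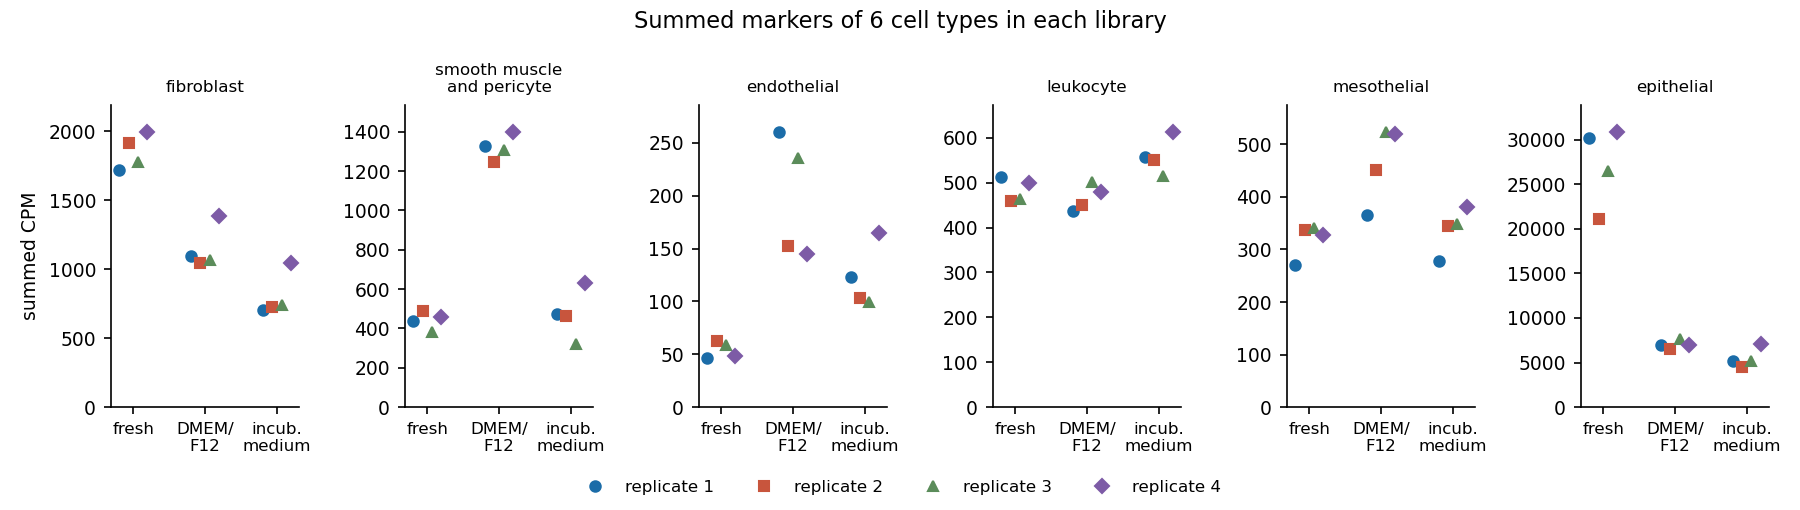
Summed CPM of the markers of 6 cell types on the vertical axis, 1 symbol per library, by group on the horizontal axis and with a separate scale per panel. Colours and shapes give the replicate number. Fibroblast sums step down from fresh cells to DMEM/F12 to Incubation Medium. The lowest DMEM/F12 library (1045 CPM) lies just above the highest Incubation Medium library (1044 CPM). Much of the fresh cell sum is FBLN1, at 855, 136 and 98.2 CPM on average in the 3 groups. Smooth muscle and pericyte sums, most of which are TAGLN, are highest in all 4 DMEM/F12 libraries.

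The smooth muscle and pericyte list gave 0 genes higher and 4 lower of 10 tested between the media (median log2 -0.45). Of all tested genes 12.7% were higher and 12.3% lower. TAGLN, an actin-binding protein, fell by 1.56 on the log2 scale (edgeR adjusted p = 0.000111). SMTN, smoothelin, fell by 1.77 (adjusted p = 1.44e-05) and the receptor NOTCH3 fell by 0.95 (adjusted p = 0.000885). TAGLN held most of the summed level, with a fresh cell level of 266 ± 54.5 CPM (SD, n = 4), 1120 ± 73.8 in DMEM/F12 and 380 ± 125 in Incubation Medium. Its rise of 2.08 from fresh cells to DMEM/F12 (adjusted p = 6.89e-07) and that of SMTN (1.37, adjusted p = 8.3e-06) ran in the direction of DKK3 and MXRA8. SYNPO2, CNN1, MYLK and NOTCH3 went the other way from fresh cells to DMEM/F12. CNN1 fell by 2.59 (adjusted p = 0.000281), MYLK by 1.66 (adjusted p = 2.02e-06) and NOTCH3 by 0.99 (adjusted p = 5.55e-05). Against fresh cells 3 rose and 4 fell in DMEM/F12, where 35.1% of all tested genes rose and 35.7% fell. In Incubation Medium 2 rose and 4 fell, beside 35.8% each way. TAGLN and MCAM made up the 2 that rose, and TAGLN was no longer called without fresh cell replicate 3 or 4 or without Incubation Medium replicate 1 or 4. With the replicate block 6 fell in Incubation Medium against fresh cells.

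The other cell type lists were short, so a single gene weighs much in them. Beside them, 12.7% of all tested genes rose and 12.3% fell between the media, and 35.1 to 35.8% went each way against fresh cells. Endothelial genes gave 0 higher and 1 lower of 5 tested between the media, 2 higher and 1 lower in DMEM/F12 against fresh cells, and 4 higher and 1 lower in Incubation Medium against fresh cells. The 1 that fell between the media was CDH5, the endothelial cadherin (log2 -1.33, edgeR adjusted p = 0.00387). Against fresh cells CDH5 and KDR rose in both media. PECAM1 was the 1 that fell there, by 0.93 in DMEM/F12 and by 0.91 in Incubation Medium (adjusted p = 2.01e-05 and 2.48e-05). Leukocyte genes gave 1 higher and 1 lower of 6 between the media, and 2 higher and 2 lower in each comparison with fresh cells. The lower count between the media was 3 without DMEM/F12 replicate 4, 2 without Incubation Medium replicate 2 and 3 with the replicate block. With that block 3 leukocyte genes rose in Incubation Medium against fresh cells. Both tested mesothelial genes, WT1 and PODXL, fell between the media, and 1 rose and 1 fell against fresh cells in each medium. The mesothelial calls between the media rested on many single libraries: 0 or 1 was left when any 1 of 8 libraries was taken out, namely fresh cell replicates 3 and 4, DMEM/F12 replicates 2 to 4 and Incubation Medium replicates 1 to 3.

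Epithelial genes gave 1 higher and 2 lower of 7 tested between the media, beside 12.7% and 12.3% of all tested genes. KRT18, a keratin of simple epithelia, rose by 0.76 on the log2 scale (edgeR adjusted p = 0.00201), and CDH1, E-cadherin, and CLDN4, a tight junction claudin, fell by 1.00 and by 1.43 (adjusted p = 3.97e-06 and 1.04e-05). In DMEM/F12 against fresh cells 3 rose and 4 fell, beside 35.1% and 35.7% of all tested genes. In Incubation Medium 2 rose and 4 fell, beside 35.8% each way. CLDN4, with group means of 1656, 2720 and 1011 CPM, was one of the 21 genes that shared the group order of MXRA8. An epithelial gene thus had the same order without overlap as MXRA8, as did SMTN of the smooth muscle list.

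Type I collagen needs enzymes and chaperones before it can form fibrils. In the list of collagen maturation genes, 6 of 20 tested rose and 2 fell between the media (median log2 0.19), while COL1A1 averaged lower. Of all tested genes 12.7% rose and 12.3% fell. P3H2, a prolyl hydroxylase, rose by 1.15 on the log2 scale (edgeR adjusted p = 3.3e-06) and PPIB, a collagen-folding isomerase, by 0.58 (adjusted p = 0.000684). P4HA3, a subunit of another prolyl hydroxylase, fell by 1.36 (adjusted p = 0.000745). The lower count was 1 without DMEM/F12 replicate 1 or 3 or without Incubation Medium replicate 1 or 3, and with the replicate block the counts were 9 higher and 4 lower. Against fresh cells 8 rose and 8 fell in DMEM/F12, where 35.1% of all tested genes rose and 35.7% fell. In Incubation Medium 7 rose and 4 fell, beside 35.8% each way. LOXL4, an oxidase that cross-links collagen, was the largest of the rises, from a fresh cell level of 2.18 ± 0.619 CPM (SD, n = 4) to 55.4 ± 19.2 in DMEM/F12 and 59.9 ± 4.05 in Incubation Medium (log2 4.67 and 4.78, adjusted p = 3.07e-09 and 2.41e-09).

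Matrix turnover genes, the metalloproteinases and their inhibitors, gave 6 lower and 0 higher of 8 tested between the media (median log2 -0.86). Of all tested genes 12.3% were lower and 12.7% higher. TIMP2 fell by 1.66 on the log2 scale (edgeR adjusted p = 5.19e-06), from 713 ± 101 CPM (SD, n = 4) in DMEM/F12 to 225 ± 40.1 in Incubation Medium. TIMP1 fell by 1.12 (adjusted p = 4e-04), the gelatinase MMP2 by 1.35 (adjusted p = 0.00102) and the membrane protease MMP14 by 0.56 (adjusted p = 0.00772). Both inhibitors and proteases thus changed in the direction of the 4 members. In DMEM/F12 against fresh cells 6 rose and 1 fell, beside 35.1% and 35.7% of all tested genes. In Incubation Medium against fresh cells 5 rose and 2 fell, beside 35.8% each way. TIMP2 rose by 1.88 in DMEM/F12 against fresh cells (adjusted p = 5.75e-08).

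MGP works within a set of vitamin K-dependent and mineral-handling proteins, of which 13 were tested. Between the media 2 rose and 2 fell (median log2 0.08), beside 12.7% and 12.3% of all tested genes, while MGP averaged lower. The higher count was 3 with the replicate block. SPP1, osteopontin, a secreted phosphoprotein, rose by 1.59 on the log2 scale (edgeR adjusted p = 2.28e-05), from 7499 ± 1852 to 22641 ± 1624 CPM (SD, n = 4). GGCX, the carboxylase that activates MGP, rose by 0.44 (adjusted p = 0.0184), a call that was lost without DMEM/F12 replicate 4 or Incubation Medium replicate 2. The 2 that fell were PRRG1 and PRRG4. The lower count was still 2 without DMEM/F12 replicate 1 or 4 or without Incubation Medium replicate 3, and was 0 or 1 when any of the other 9 libraries was taken out. Against fresh cells 3 rose and 6 fell in DMEM/F12, where 35.1% of all tested genes rose and 35.7% fell. In Incubation Medium 4 rose and 7 fell, beside 35.8% each way. Among the falls in DMEM/F12 were GGCX by 1.28 (adjusted p = 4.48e-07) and the secreted Gla proteins PROS1, which fell by 2.69 (adjusted p = 8.18e-09), and GAS6, which fell by 2.23 (adjusted p = 2.24e-06). NT5E, an ectonucleotidase that restrains calcification, fell by 4.62 (adjusted p = 4.72e-07), and VKORC1L1, a vitamin K reductase, rose by 1.42 (adjusted p = 9.62e-08).

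Genes of BMP signalling, which MGP can modulate, gave 8 lower and 0 higher of 15 tested between the media (median log2 -0.37). Of all tested genes 12.3% were lower and 12.7% higher. The target genes ID3 and ID2 fell by 0.94 and by 0.60 on the log2 scale (edgeR adjusted p = 0.00426 and 0.00749), and the decoy receptor BAMBI by 0.71 (adjusted p = 0.00719). ID1, another target, had a log2 difference of -0.44 (SE 0.24, adjusted p = 0.195). The count of 8 was 5 without replicate 4 of both media, the pair of spheroid libraries whose fibroblast sums stood apart. Against fresh cells 4 rose and 6 fell in DMEM/F12, where 35.1% of all tested genes rose and 35.7% fell. In Incubation Medium 3 rose and 10 fell, beside 35.8% each way. BMP4, a ligand, rose by 0.86 in DMEM/F12 (adjusted p = 7.97e-05) and by 1.04 in Incubation Medium (adjusted p = 1.23e-05).

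For DKK3 the list held the Dickkopf family and parts of the Wnt pathway, of which 9 were tested. Between the media 1 rose and 4 fell (median log2 -0.27), beside 12.7% and 12.3% of all tested genes. The other secreted Dickkopf genes with a row, DKK2 and DKK4, had at most 1 and 2 counts in a library, and no row carried the symbol DKK1, which was not analysed here. DKKL1, a Dickkopf-like gene, was near level over the groups at 38.5 ± 4.96, 35.5 ± 1.62 and 36.2 ± 5.54 CPM (SD, n = 4). KREMEN1, a receptor of Dickkopf proteins, fell by 0.43 on the log2 scale (edgeR adjusted p = 0.0106), as did the transcription factor TCF7 by 0.63 (adjusted p = 0.00925), and the ubiquitin ligase RNF43 rose by 0.93 (adjusted p = 0.00216). The higher count was 2 without DMEM/F12 replicate 1, and the lower count was 2 without replicate 4 of both media. Against fresh cells 2 rose and 4 fell in DMEM/F12, where 35.1% of all tested genes rose and 35.7% fell. In Incubation Medium 1 rose and 5 fell, beside 35.8% each way. LGR5, a Wnt-amplifying receptor, fell by 4.16 in DMEM/F12 and by 3.78 in Incubation Medium against fresh cells (adjusted p = 2.02e-10 and 3.85e-10).

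MXRA8 was set beside MXRA7, which shares its name, and the integrins, of which the integrin alpha V and beta 3 chains are reported partners of MXRA8. Of 7 tested, 5 fell and 0 rose between the media (median log2 -0.52), beside 12.3% and 12.7% of all tested genes. ITGB3 fell by 1.14 on the log2 scale (edgeR adjusted p = 0.00102), ITGB5 by 0.86 (adjusted p = 0.000616), ITGAV by 0.74 (adjusted p = 3.23e-05) and MXRA7 by 0.52 (adjusted p = 0.000643). In DMEM/F12 against fresh cells 5 rose and 1 fell, beside 35.1% and 35.7% of all tested genes. In Incubation Medium against fresh cells 4 rose and 2 fell, beside 35.8% each way. ITGB3 went from a fresh cell level of 2.73 ± 1.37 CPM (SD, n = 4) to 79.8 ± 17 in DMEM/F12 and 36.1 ± 10.2 in Incubation Medium, and ITGAV from 50.7 ± 3.18 to 94.4 ± 7.92 and 56.6 ± 3.49. The 1 gene that fell in DMEM/F12 was MXRA7 (log2 -0.23, adjusted p = 0.0256), a call that was lost without fresh cell replicate 1, 2 or 4, without DMEM/F12 replicate 1 or 3, on library totals without TMM scaling, and with no filter on low counts.

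The genes most like each member in profile over the 12 libraries were sought among 7958 genes with a symbol and a mean of at least 5 CPM. For MGP they were NR4A1 at a root mean square log2 difference of 0.81, NR4A3 and EGR1 at 0.96, DPEP2 at 0.98 and PVALB at 1.00. NR4A1 and EGR1 encode transcription factors of the immediate early response, and NR4A1 averaged 1631 CPM in fresh cells, 10.4 in DMEM/F12 and 6.86 in Incubation Medium. For DKK3 they were ALDH1A3 at 0.74, CSF2 at 0.77, PLET1 at 0.88, UABP-2 at 0.95 and PKP1 at 1.06. ALDH1A3, which makes retinoic acid, averaged 3.63, 250.1 and 20.7 CPM in the same order of groups. For MXRA8 the closest were SOD3 at 0.56, SLC30A1 at 0.69, SLC43A2 at 0.72, RHPN1 at 0.76 and CFD at 0.79. SOD3, the extracellular superoxide dismutase, averaged 74.0, 162.9 and 22.0 CPM. For COL1A1 they were HCAR1 at 0.56, WNT2 at 0.69, IFI6 at 0.77, and MXRA8 and DEFB1 at 0.80. None of the fibroblast markers was among these 20 places. The places depend on the prior count added before the logarithm, above all for DKK3, whose fresh cell level is at the floor. With a prior of 0.5 in place of 2, 4 of the 5 genes were shared for each member. PLET1 at 1.11 and CSF2 at 1.15 then came first for DKK3, with ALDH1A3 farther at 1.35 and RCAN2 in place of PKP1. RGS1 at 0.76 came first for MGP, and COL1A1 entered the 5 places of MXRA8 at 0.81.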

How the data were processed

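Polyadenylated RNA of 12 libraries was primed with oligo-dT, converted to cDNA, tagmented, indexed and amplified, per the labels' protocols. The processing tools named are fastp 0.24.0, STAR 2.7.11, SAMtools 1.22.1 and featureCounts of Subread 2.1.1, per the submitters' processing notes. The genome build, the strand setting and the use of molecular identifiers are not given in the sources used here. Per the file headers, the table the authors deposited has an expected count for every gene in each library: between 19.1 and 20.5% of counts above 0 had a fraction, so reads had been shared between features. They also deposited CPM, which equalled the count over the library total to within 4.98e-06. Because the counts were not all whole, they were rounded before each count model. Of 30553 rows, 92 were spike-in sequences, with at most 0.000614% of a library's counts, and were left out.

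Genes were filtered with filterByExpr by group and scaled with TMM (factors 0.953 to 1.07). A quasi-likelihood fit of all 12 libraries in edgeR 4.0.16 (R 4.3.3, limma 3.58.1) with a mean per group gave every log2 fold change, SE and p, while folds printed without a logarithm are ratios of mean CPM or bounds. The biological coefficient of variation was 0.146. Adjustment (Benjamini-Hochberg) was over the 14070 tested genes, and a gene was called where the adjusted p was under 0.05. CPM printed for genes use TMM-scaled library sizes. A group whose libraries all held at most 3 counts is given as a bound against that floor. The code was tested on simulated data.

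The 4 genes and the 12 lists (208 genes, 115 tested, the keratin KRT8 left out of the list counts because it stood on 2 tested rows, but kept in the summed epithelial markers) were chosen with earlier results of these data known. Genes picked for naming were the 4 members, fixed matrix genes, the 3 of each list with the highest level and the largest rise and fall of each list at a mean of at least 5 CPM, and the 5 genes most like each member. Of these, PLOD1, P4HB, P4HA2, PCOLCE2, CORO1A, AIF1, BMPR1B, CTNNB1, TCF7L2, ITGB1, ITGB6 and TIMP4 have no values printed here. Other named genes, such as P3H2, were chosen after their values were seen.

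Libraries with the same replicate number deviated together from their group means in every pair of groups (correlations 0.196 to 0.516 across genes, the highest with the own number in every case). The labels do not say what a number marks, so the pairing rests on this check. Counts that the number as a block moves by at least 1.5 times are given beside the result, and the other calls it moves are given with the alternatives.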

Additional observations from a re-analysis of the deposited data

Results flagged for a closer look

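In groups of 4 libraries, a library was singled out when its gap to the nearest of the others was large against the range of the group (Dixon's 95% limit). Of 30 groups checked, 3 held such a library, and chance singles out about 1 in 20. DKK3 in Incubation Medium replicate 2, at 2.00 CPM, lay below the other 3 libraries at 3.45 to 3.58 CPM. The summed fibroblast markers stood at 1385 CPM in DMEM/F12 replicate 4, with the other 3 libraries at 1045 to 1095. In Incubation Medium replicate 4 the same sum was 1044 CPM, with the others at 701 to 740.2. S100A4 held 611 and 441 CPM of these sums, and without it the sums were 773 CPM in DMEM/F12 replicate 4, against 605 to 859 in the other 3 libraries, and 603 CPM in Incubation Medium replicate 4, against 456 to 518. Neither library then passed the limit. Without both of these replicate 4 libraries, the calls between the media were 0 lower in the mesothelial list, 3 lower in the leukocyte list and 1 higher and 0 lower in the list of Gla and mineralisation genes, and those of the BMP list and of the Dickkopf and Wnt list are given with these lists. COL1A1 was the highest of its group in both libraries.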

How the results depend on the processing

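The alternatives were DESeq2-type size factors, library totals without TMM scaling, DESeq2 1.42.0, filters on low counts (none, or a mean of at least 10), the replicate block, only the groups compared, and each library left out in turn. Keeping the fractions of the counts, and leaving out replicate 4 of both media, were added after the data were seen. No difference of a member changed direction under any of them. Leaving out 1 library moved the log2 difference of Incubation Medium minus DMEM/F12 between -2.64 and -1.66 for MGP and between -3.94 and -3.18 for MXRA8. It moved MGP in DMEM/F12 minus fresh cells between -6.20 and -5.22 and MXRA8 in Incubation Medium minus fresh cells between -3.16 and -2.39. The cause was not tested. The count of fibroblast markers that rose between the media was 0, and became 1 with DESeq2, with the replicate block and with only the groups compared, and 0 to 1 with 1 library left out, 1 only without fresh cell replicate 1. In each case the 1 gene was COL1A2. On library totals 1239 genes rose and 2471 fell between the media, against 1791 and 1731 with TMM, and the median of all genes shifted by -0.094 on the log2 scale. Some moves with the replicate block are printed as counts with their lists. These are the collagen maturation, leukocyte and Gla and mineralisation lists between the media. The leukocyte list and the smooth muscle and pericyte list against fresh cells are printed so too. Between the media FBLN1 (log2 -0.50, adjusted p = 0.0022), S100A4 (-0.48, adjusted p = 0.00852), MCAM, BMPR2 and VKORC1L1 were also called with the block and not without it. The same held for LOXL1, PRRG4 and ITGB5 in DMEM/F12 minus fresh cells and for CD14, EPCAM and PRRG1 in Incubation Medium minus fresh cells. DKK3 in fresh cells and PDGFRA in Incubation Medium are limited by depth to bounds.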

Other observations

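The 21 genes that shared the order of MXRA8 without overlap included MXRA8 itself and 3 rows with no symbol. Others among them were the G protein subunit GNAO1 (6.57, 19.9 and 3.22 CPM on average in fresh cells, DMEM/F12 and Incubation Medium), the Wnt ligand WNT5B (7.26, 15.6 and 3.99 CPM) and DPYSL2 (56.1, 111.2 and 37.9 CPM). These 3 were chosen after their values were seen.

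The next genes on the chromosome were looked up after the levels of the 4 members were known, by gene order in the RefSeq table of the Sscrofa11.1 assembly, whereas the build of the deposited table is not given in the sources used here. Tested neighbours within 2 places were ARHGDIB for MGP, PARVA and USP47 for DKK3, TAS1R3, DVL1, AURKAIP1 and CCNL2 for MXRA8, and PPP1R9B and TMEM92 for COL1A1. Between the media 0 of these 9 genes passed the edgeR test, against 3 at an unadjusted p under 0.05 and 1 by DESeq2 after adjustment, with edgeR adjusted p from 0.0596 (CCNL2, log2 -0.20) to 0.984 (PPP1R9B, log2 -0.01), where 25% of all tested genes passed. In DMEM/F12 minus fresh cells 7 of the 9 passed, beside 70.7% of all tested genes, and in Incubation Medium minus fresh cells 5 of the 9, beside 71.7%. The largest difference between the media was that of TAS1R3, a log2 value of 0.57 (adjusted p = 0.185), and the neighbour of MGP, ARHGDIB, had -0.46 (adjusted p = 0.136).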
